A study of Mus musculus with 4 samples.

Results

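Chromatin modifier and remodeller genes were examined in mouse heart for N6-methyladenosine (m6A), the methylated form of adenosine found within mRNA molecules. The members were chosen by gene name alone: lysine demethylases (Kdm), lysine methyltransferases (Kmt, Setd, Ehmt, Nsd), lysine acetyltransferases (Kat), DNA methyltransferases (Dnmt), TET dioxygenases (Tet), SWI/SNF subunits and related proteins (Smarc, Arid), CHD remodellers (Chd) and bromodomain proteins (Brd). A peak was listed for 67 such genes, of 6653 genes with a peak in all. A further 29 protein-coding RefSeq genes with such names had no peak in the lists used here, among them Kmt2c, Arid2, Tet1, Kat7, Kat8, Kdm3a, Smarcb1 and Smarcd1, which shows neither that their RNA lacked m6A nor that it was absent.

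The hearts came from C57BL/6 mice. Treated mice received a mimic of the PIWI-interacting RNA CHAPIR (30 mg/kg) from implanted osmotic minipumps for 14 days, and control mice (NC) received a scrambled mimic in the same way. The labels name both groups as overexpressing their mimic and place them at 2 weeks, and they do not give age, sex or the number of mice. In MeRIP-seq, fragments of mRNA are pulled down with an antibody against m6A and sequenced beside the unselected input. Each condition had 1 immunoprecipitated and 1 input library, from which the authors called 1 list of peaks. The spread between animals was not measured and no test between conditions was possible, so what differs below differs between single libraries. How deeply they were sequenced is unknown, and fewer cells of a type, less RNA per cell and less methylation per RNA cannot be told apart in such bulk lists.

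Chromatin proteins of these classes write, erase or read chemical groups on histones and DNA, or slide and eject nucleosomes with energy from ATP. In the heart, SWI/SNF (BAF) complexes and histone demethylases are known for their part in development and in the switch of gene programmes under load. m6A is placed on mRNA by the METTL3 and METTL14 complex, is known to gather in long internal exons and around stop codons, and is known to shorten the life of many mRNAs.

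Genome sequence under the peaks was not used here, but 2 members had peaks at an annotated transcript start, where RefSeq sequence (GRCm38.p6) was at hand. They are shown because these were the only members with a peak on a coding transcript that reached at least 30 bases into a RefSeq start window. Each line gives the first 30 bases of the peak, 5′ to 3′ on the transcribed strand, with the m6A core letters GGAC in capitals.
Smarcd3 (chr5:24601983-24602012, GRCm38, minus strand): agccctgaaggggccccctccccactccgc
Setd3 (chr12:108179195-108179224, GRCm38, minus strand): ggttggttgaggcGGACggtggggtcccgg
The search was made for GGAC and, on the other strand, GTCC. Over the 60 bases of the Smarcd3 window that lay in the peak neither was found, and over 33 bases of Setd3 each occurred 1 time. Of all 32851 RefSeq start windows, 18.9% held GGAC and 17.4% held GTCC within the 50 bases after the start. A match is only a match of letters.

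Of the 67 members, 42 had a peak in both lists (62.7%, 95% Wilson interval 50.7 to 73.3), 21 in the NC list only (31.3%, 21.5 to 43.2) and 4 in the CHAPIR list only (5.97%, 2.35 to 14.4). Over all 6653 genes with a peak these shares were 53.5%, 31.3% and 15.3%. With all peaks the NC only share of the members therefore equalled the background, and the CHAPIR only share lay below it. Intervals here and below cover counting error only. With both lists held to equal length, 42 of 61 members were shared, 15 had peaks in NC alone and 4 in CHAPIR alone, while 19.5% of all genes were NC only and 24.1% CHAPIR only. Peaks at a false discovery rate (FDR, the authors' adjusted p-value) at or under 1e-05 gave 23 NC only and 3 CHAPIR only members of 55, against 30% and 18.4% of all genes. Of these, 10 of the 23 and all 3 were shared when all peaks were used. The 4 members that were CHAPIR only with all peaks kept no peak. Peaks of at least 4-fold gave 26 NC only and 4 CHAPIR only members of 62, against 33.7% and 29.7%, and 9 and 1 of these were shared with all peaks. Under these 3 settings the members' NC only share thus lay above that of all genes, and their CHAPIR only share below it.

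The enzyme classes divided unequally. SWI/SNF-type and ARID genes were in both lists in 12 of 13 cases, CHD remodellers in 7 of 9, bromodomain genes in 5 of 7, lysine methyltransferases in 12 of 18 and acetyltransferases in 3 of 5. Lysine demethylases were in both lists in 2 of 11 cases, with 7 NC only and 2 CHAPIR only, and DNA methyltransferase and TET genes in 1 of 4, with 2 NC only and 1 CHAPIR only. The 95% intervals of the shared fraction were 66.7 to 98.6% for the SWI/SNF-type class and 5.14 to 47.7% for the demethylases. No member of the SWI/SNF-type, CHD, bromodomain or acetyltransferase classes was CHAPIR only. In these small classes such a 0 allows much: of 13 genes the interval reaches 22.8%, and of 5 genes 43.4%.

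**Figure D1:**
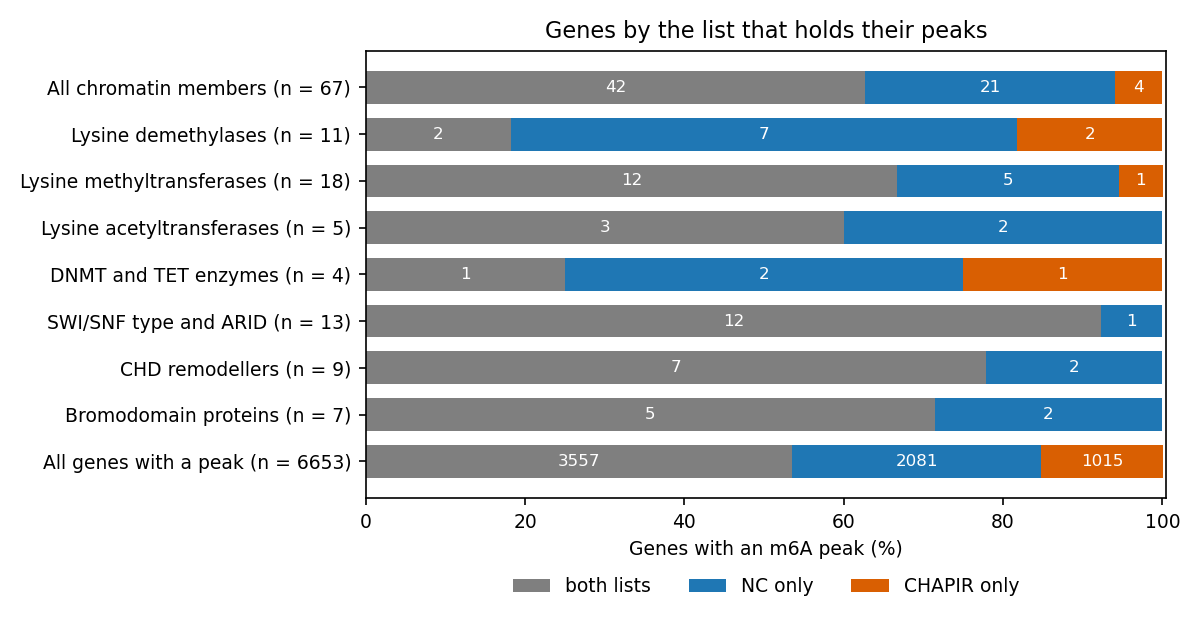
Share of genes (%) with a peak in both lists, in the NC list only and in the CHAPIR list only, for each class, for all 67 members and for all 6653 genes with a peak, with gene numbers in the bars. Demethylases are mostly NC only (7 of 11), while 12 of 13 SWI/SNF-type and ARID genes are in both lists.

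The peaks of these genes lay mostly in coding sequence, in both lists. A peak is given 1 line per transcript, so lines of 1 gene repeat and are not independent, and intervals on lines are too narrow even for counting error. On protein-coding transcripts, 291 of 403 NC lines of the members lay wholly in the coding sequence, or CDS (72.2%, 67.6 to 76.4), against 49.6% (48.8 to 50.3) in the other genes. In the CHAPIR list 165 of 241 did (68.5%, 62.3 to 74), against 36.2% (35.4 to 37.1). The 3' UTR held 8.68% of the members' NC lines (6.31 to 11.8) and 13.7% of their CHAPIR lines (9.92 to 18.6), against 23.4% and 39.2% in the other genes. In both lists the members' CDS share thus lay above that of the other genes and their 3' UTR share below it. Over all genes the CDS share was 50.1% in NC and 36.8% in CHAPIR. With 1 line per gene, the members' CDS shares were 66.7% (NC) and 58.7% (CHAPIR), against 37.7% and 24.4% over all genes.

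Across the classes the CDS share of NC lines ran from 53.6% (15 of 28) in acetyltransferases and 53.8% (14 of 26) in demethylases to 81.2% in methyltransferases. In the CHAPIR list it was highest in bromodomain genes (82.4%, 28 of 34) and lowest in demethylases (42.9%, 3 of 7). Among the members' CHAPIR lines that no NC peak overlapped, 27 of 44 lay in the CDS (61.4%, 46.6 to 74.3) and 14 in the 3' UTR (31.8%, 20 to 46.6). Over all genes the order was the other way, with 16% in the CDS and 67.9% in the 3' UTR.

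**Figure D2:**
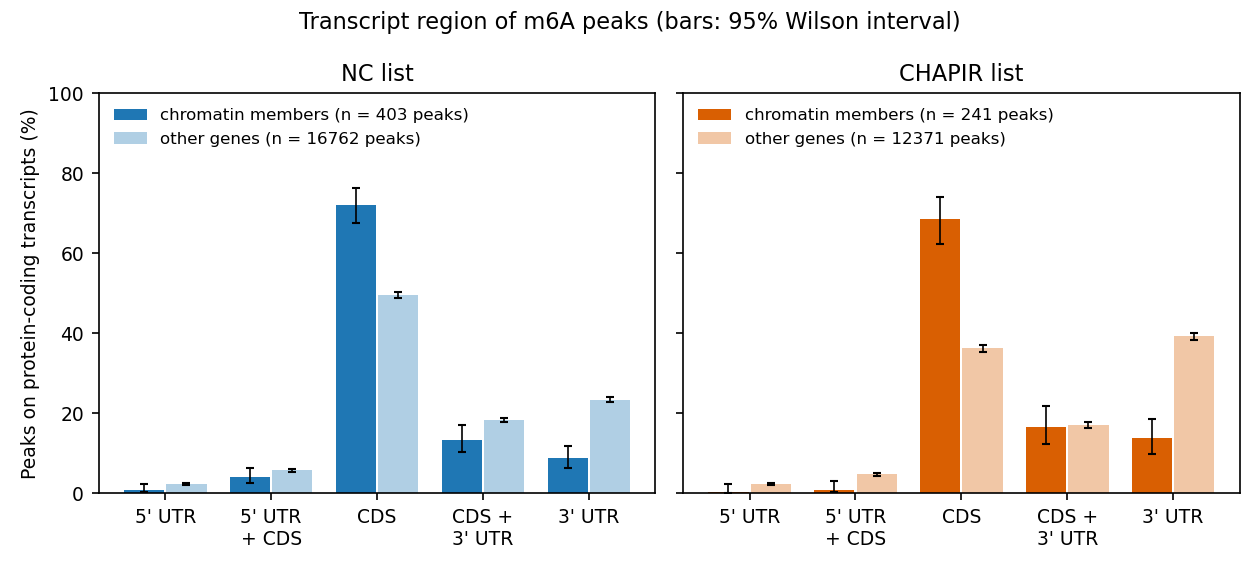
Share (%) of peak lines on protein-coding transcripts by transcript region, for the 67 members and for all other genes, in the NC list (left) and the CHAPIR list (right). Bars show shares and whiskers 95% Wilson intervals, which are too narrow because lines repeat by transcript. The members' CDS share is 72.2% and 68.5%, above the other genes' 49.6% and 36.2%. With 1 line per gene the members' CDS share is 66.7% and 58.7%.

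Overlapping peaks of a gene were merged into sites, by exonic bases over both lists. The members had 177 sites, or 2.64 per gene, against 1.64 per gene over all genes with a peak. Of these sites 63 were in both lists (35.6%), 93 NC only (52.5%) and 21 CHAPIR only (11.9%), against 37.5%, 42.1% and 20.4% over all genes. The median RefSeq span of the members was 70154 bases, against 24081 for the genes with a peak, and the part of gene length in the number of sites was not tested. Kmt5a and Chd4 had 6 sites each, and Arid1a, Chd1, Chd6, Kat6a, Kmt2d, Kmt2e, Nsd1 and Setd3 had 5 each. A CHAPIR peak overlapped 46.5% of the members' NC lines (42.4 to 50.8), close to the 50.5% over all genes. An NC peak overlapped 84.2% of their CHAPIR lines (79.8 to 87.8), against 72.3% over all genes. Most CHAPIR peaks of these genes thus lay where the NC list had a peak too.

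Histone lysine demethylases remove methyl groups from histones. Kdm1a encodes a flavin enzyme and the other Kdm genes jumonji enzymes, and the family as a whole acts on several lysines. Kdm5c, an X-linked demethylase of the active promoter mark, had the smallest FDR among the NC only demethylases (3.98e-36). Its NC peak of 870 exonic bases crossed the stop codon (chromosome X, 152271441 to 152273155) at an authors' fold enrichment of 11.7, which is the ratio of immunoprecipitated over input signal in the peak. Folds are not scaled between the lists and describe a peak within its own list. Kdm3b, a demethylase of a repressive mark, had an NC peak in the CDS (chromosome 18, 34803468 to 34803797, 8.69-fold, FDR 5.01e-13), and Kdm2a had one (chromosome 19, 4324396 to 4324576, 4.24-fold, FDR 3.72e-07). The other NC only demethylases were Kdm4a (4.07-fold), Kdm4b (3.75-fold), Kdm7a (11.3-fold) and Kdm6a (4.83-fold), with FDRs from 1.86e-06 to 0.0229. At an FDR at or under 1e-05 the class kept 4 NC only genes.

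The X-linked members were Kdm5c and Kdm6a, both NC only, and both are known to escape X inactivation. The X-inactivation RNA Xist was NC only too (5.5-fold, FDR 5.01e-43). The Y-linked genes Ddx3y (3.01-fold, FDR 0.000282) and Eif2s3y (2.77-fold, FDR 0.00123) were CHAPIR only. Of the other 2 genes on chromosome Y with a peak, Erdr1 was in both lists and Gm20775 was NC only (11.8-fold, FDR 0.00891). Over all 151 X-linked genes with a peak, 39.7% were NC only (60 genes) and 13.2% CHAPIR only (20 genes). Over all 6653 genes with a peak these shares were 31.3% and 15.3%. The labels do not give the sex of the mice. The mimic and the sex of the mice therefore cannot be told apart, for the X-linked pair or for any other difference between the lists. Without genes of chromosomes X and Y, a setting added after the data were seen, 42 of 65 members were in both lists, 19 NC only and 4 CHAPIR only. Leaving these genes out does not separate sex from mimic for the other members.

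Kdm5b, another demethylase of the active promoter mark, and Kdm1a were CHAPIR only, both with a short 3' UTR peak. The Kdm5b peak covered 61 bases (chromosome 1, 134631462 to 134631522) at 17.7-fold and an FDR of 0.000977, and 86 peaks of the CHAPIR list carried that same fold. The Kdm1a peak also covered 61 bases (chromosome 4, 136550659 to 136550719, 5.55-fold, FDR 0.024) and lay inside the RefSeq span of a neighbouring gene, Luzp1, so its reads are uncertain. Neither gene kept a peak at an FDR at or under 1e-05. Kdm5a was the demethylase with overlapping peaks in both lists: on a noncoding transcript line, its leading NC peak (chromosome 6, 120430263 to 120439035, 10.4-fold, FDR 1.26e-39) and its leading CHAPIR peak (120431824 to 120432207, 4.49-fold, FDR 7.94e-11) share a site. Kdm6b, a demethylase of the Polycomb mark, had 1 NC peak (5.23-fold, FDR 5.13e-07) and 2 CHAPIR peaks (8.71-fold with FDR 6.31e-12, and 15.6-fold with FDR 1.86e-06), all in the CDS. The nearest of them were 209 genomic bases apart, so in Kdm6b different stretches passed the authors' threshold in the 2 lists.

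Lysine methyltransferases of histones add the marks, though the genes here were grouped by name and not by the activity of each protein. Kmt2e, known from blood stem cells, had leading peaks in the CDS in both lists. The NC peak (chromosome 5, 23485578 to 23502774, 617 exonic bases) had 8.77-fold and an FDR of 7.94e-51. The CHAPIR peak (23501778 to 23502827) covered 1050 bases in a single block at 9.36-fold and an FDR of 1.58e-37. Setd3, a methyltransferase of actin, had leading peaks at its 3' end in both lists (chromosome 12, 108107145 to 108108562, 4.14-fold, FDR 2e-38 in NC, and 108107265 to 108107594, 4.32-fold, FDR 1.26e-18 in CHAPIR). The start of Setd3, printed above, had a weaker peak in both (2.54-fold, FDR 0.00389 in NC, and 3.43-fold, FDR 0.00316 in CHAPIR). Nsd3 followed with 2-block CDS peaks at almost the same place (25640973 to 25648507 in NC and 25640913 to 25648477 in CHAPIR, chromosome 8), at 5.65-fold (FDR 7.94e-15) and 12.8-fold (FDR 3.16e-25).

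Kmt2a, Kmt2b, Kmt2d, Setd1a and Setd1b encode enzymes that methylate the histone lysine marking active promoters and enhancers. They are described together because of their peak positions, so those positions are no independent feature of the family, and Kmt2e, which shares the KMT2 name, had overlapping peaks (above). Kmt2a, Kmt2d, Setd1a and Setd1b had peaks in both lists but at separate positions, and Kmt2b was NC only (3.62-fold, FDR 0.000501). In Kmt2a the NC peak lay in the CDS (chromosome 9, 44820521 to 44820910, 4.78-fold, FDR 7.59e-08) and the CHAPIR peak in the 3' UTR (44804525 to 44804735, 4.16-fold, FDR 2.63e-07), 15785 genomic bases apart. In Kmt2d 4 NC sites (leading fold 3.52, FDR 0.000275) lay at least 12862 bases from the CHAPIR site (chromosome 15, 98863367 to 98863727, 5.9-fold, FDR 1.86e-07), all in the CDS. Setd1a had a 4-block CDS peak in NC (chromosome 7, 127787565 to 127791246, 7.13-fold, FDR 1.26e-13) and another CDS peak in CHAPIR (127785988 to 127786198, 6.03-fold, FDR 0.000112), 1366 bases apart. Setd1b had an NC peak at 9.12-fold (chromosome 5, 123158621 to 123158891, FDR 1.45e-10) and CHAPIR peaks in the CDS (123160630 to 123160779, 26-fold, FDR 6.31e-06) and the 3' UTR (8.84-fold, FDR 0.000324). Of the 42 shared members 36 had overlapping peaks (85.7%), against 90.6% of all shared genes, and these 4 genes, Kdm6b and Brd2 were the exceptions.

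**Figure D3:**
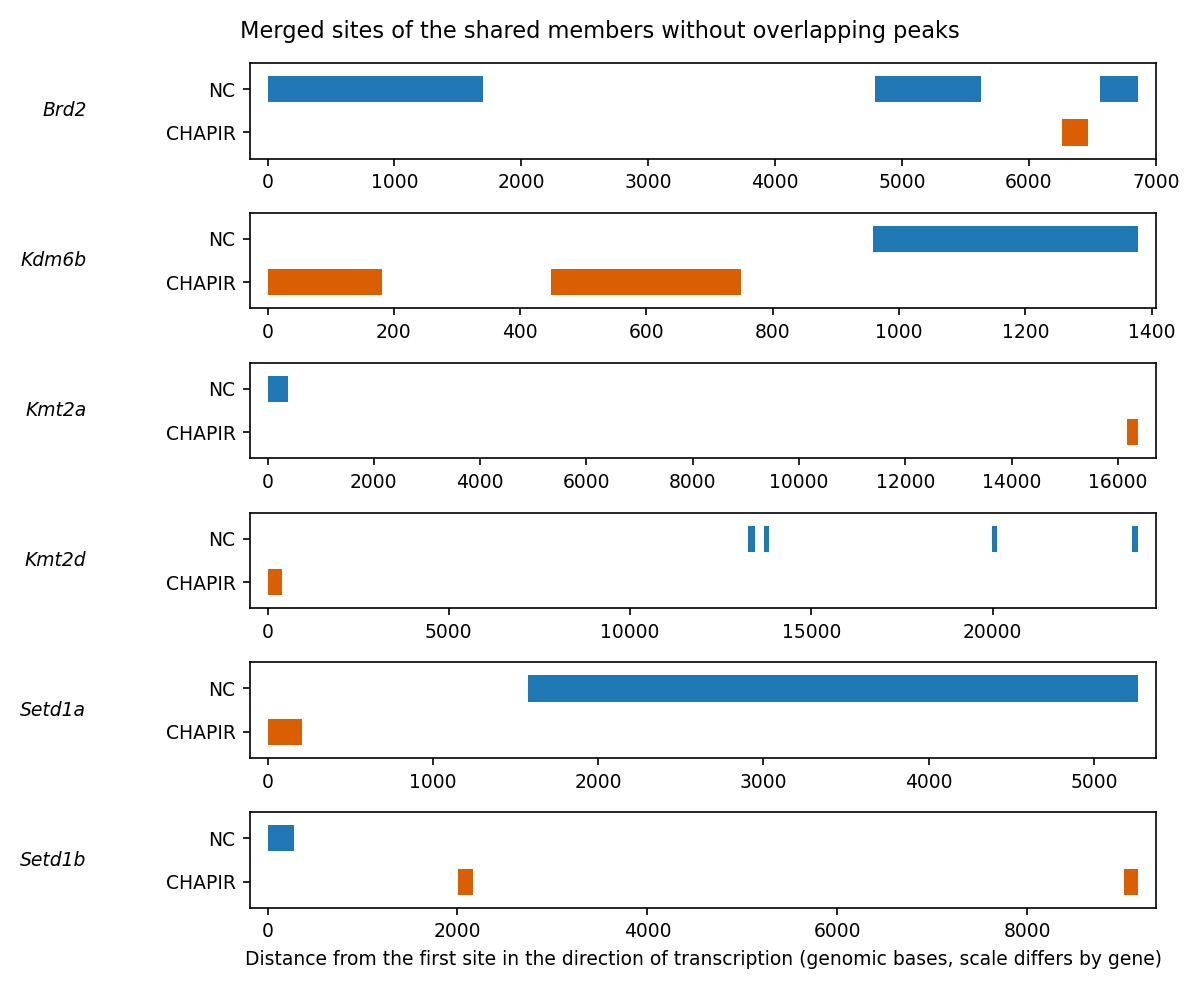
Position of the merged sites of the 6 shared members whose NC and CHAPIR peaks did not overlap, as distance (genomic bases) from the first site in the direction of transcription, with the NC list above and the CHAPIR list below. The gap between the nearest peaks of the lists runs from 92 bases in Brd2 to 15785 bases in Kmt2a.

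Kmt5a, the enzyme that places a single methyl group on histone H4, had 21 CHAPIR lines and 12 NC lines, over 6 sites of which 4 were shared. Its leading CHAPIR peak covered 298 bases (chromosome 5, 124460651 to 124460948) at 5.96-fold and an FDR of 2.51e-52, the smallest FDR of any member in that list. Its leading NC peak had 1.86-fold and an FDR of 8.71e-05, so at an FDR at or under 1e-05 the gene was CHAPIR only. Arid5b and Kmt2d were the other members in that position.

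Ehmt1 and Ehmt2, partner enzymes that write a repressive mark, were both NC only. Ehmt1 had a 4-block CDS peak (chromosome 2, 24852757 to 24863338, 5.36-fold, FDR 5.01e-12) and Ehmt2 a 6-block CDS peak (chromosome 17, 34903188 to 34906023, 3.59-fold, FDR 1.2e-08). Setd6 had an NC peak in the 3' UTR (chromosome 8, 95718800 to 95719010, 3.83-fold, FDR 3.39e-06) inside the span of its neighbour Cnot1, so the assignment of its reads is uncertain. Nsd2 was NC only in the CDS (4.21-fold, FDR 0.000398). Setd7, a methyltransferase of histones and other proteins, was the CHAPIR only member of the class, with a 3' UTR peak of 90 bases (chromosome 3, 51521086 to 51521175) at 4.51-fold and an FDR of 0.00302. The remaining shared members, Setd2, Setd5, Nsd1 and Kmt5b, all had overlapping peaks, with 2 sites in both lists for Setd2 and Setd5, 4 for Nsd1 and 1 for Kmt5b.

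Among acetyltransferases, which open chromatin by adding acetyl groups, Kat6a led. Its NC peak lay in the CDS (chromosome 8, 22938170 to 22938978, 6.83-fold, FDR 7.94e-35) and its leading CHAPIR peak crossed the stop codon (22940382 to 22940801, 9.59-fold, FDR 7.94e-19), and both sites were found in both lists. Kat6b, its close relative, had a long NC peak of 1591 exonic bases (chromosome 14, 21662197 to 21669359, 7.36-fold, FDR 1e-20) that no CHAPIR peak overlapped. The Kat6b peak across the stop codon in the CHAPIR list (21670289 to 21670888, 10.4-fold, FDR 1.17e-07) overlapped a smaller NC peak (2.95-fold, FDR 0.00049). In both genes the lists were thus led by different, neighbouring sites. Kat14, a subunit of an acetyltransferase complex, shared a CDS site and a 3' UTR site. At the 3' UTR site the coding-transcript peaks of smallest FDR in each list met only at their edges. The leading NC peak of Kat14, at the 5' end (4.29-fold, FDR 1.86e-09), reached into the span of Pet117. Kat2b and Kat5 were NC only. Kat2b had a peak of 2.02-fold (FDR 0.00178) on a noncoding transcript and another across its start codon at 10.2-fold (chromosome 17, 53567329 to 53567448, FDR 0.00257), and Kat5 had 1 peak (1.97-fold, FDR 0.0178). Neither gene was left in lists of equal length.

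DNA methyltransferases and TET enzymes write and oxidise the methyl mark on cytosine. Dnmt1, which copies methylation after replication, was NC only, with a 6-block CDS peak (chromosome 9, 20927110 to 20936592, 6.67-fold, FDR 6.31e-11). Dnmt3a, which sets new methylation, had overlapping leading peaks. On the transcripts they were assigned to, the NC peak crossed the stop codon (chromosome 12, 3907697 to 3908027, 4.37-fold, FDR 1.26e-15). The CHAPIR peak lay in the 3' UTR (3907807 to 3907956, 3.69-fold, FDR 0.000479). The merged site reached 3911417, so these peaks need not lie at the end of every Dnmt3a transcript. The TET enzymes lay on opposite sides. Tet3 was NC only, with CDS peaks of 330 bases (chromosome 6, 83368364 to 83368693, 13.2-fold, FDR 1.91e-09) and 91 bases (13.4-fold, FDR 0.00309). Tet2 was CHAPIR only, with a CDS peak of 91 bases (chromosome 3, 133467435 to 133467525, 3.12-fold, FDR 0.00038). The Tet2 fold was at the 33.3 percentile of the CHAPIR list and that of Tet3 at the 97.2 percentile of the NC list.

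SWI/SNF-type remodellers were the most evenly shared class, and all 12 shared genes had overlapping peaks. Smarcc2, a core scaffold subunit, had a 6-block CDS peak in the NC list (chromosome 10, 128483286 to 128487268, 5.32-fold, FDR 1.26e-64). Its CHAPIR peak of smallest FDR lay in the 3' UTR (128489963 to 128490172, 55.1-fold, FDR 3.16e-26), at the 99.7 percentile of fold in its list. The NC list held a peak inside the same stretch at 3.02-fold and an FDR of 0.0145, and the CHAPIR list held the CDS site too at 3.19-fold and an FDR of 6.31e-16. Both Smarcc2 sites were therefore shared, and the lists were led by different ones. Smarce1, a DNA-binding subunit, had the smallest FDR of all members (6.31e-99), for a 7-block NC peak across the stop codon (chromosome 11, 99210030 to 99220689, 4.75-fold). Its CHAPIR peak at the same end (99210059 to 99214081) had 3 blocks, 3.5-fold and an FDR of 5.01e-25.

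The ATPase genes Smarca2 and Smarca4, which encode the alternative motors BRM and BRG1 of BAF complexes, were both shared. Smarca2 had the most lines of any member, 44 (NC) and 42 (CHAPIR) on 40 and 36 transcripts, and a shared site across its 3' end (7.09-fold, FDR 3.98e-71 in NC, and 3.92-fold, FDR 2e-23 in CHAPIR). It also had an 8-block CDS peak in the NC list only (chromosome 19, 26649140 to 26672798, 5.08-fold, FDR 1.58e-19). Smarca4 had CDS peaks at 6.64-fold for NC (FDR 1.58e-26) and 3.61-fold for CHAPIR (FDR 1.32e-05). Smarca5, the ISWI motor, had a 10-block NC peak and a 4-block CHAPIR peak over the same site. Smarcd3, which encodes the heart-enriched subunit BAF60c, was the member with its leading peak at the 5' end in both lists. That peak joined the first exon, whose start is printed above, to the next (chromosome 5, 24598766 to 24602012, 3.55-fold, FDR 6.31e-13 in NC, and 24598796 to 24602012, 8.47-fold, FDR 7.94e-13 in CHAPIR). Its 3' end had a second peak in the NC list only (2.25-fold, FDR 5.62e-05), inside the span of Chpf2.

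ARID genes encode DNA-binding proteins, of which Arid1a and Arid1b are the large BAF subunits. Arid1a had 5 sites, 2 of them shared, 2 NC only and 1 CHAPIR only. Its leading CHAPIR peak (chromosome 4, 133720556 to 133720856, 5.53-fold, FDR 1.58e-18) had no NC peak over it, and its leading NC peak (133753251 to 133753611, 9.72-fold, FDR 1e-16) was met by a CHAPIR peak of 61 bases (15.6-fold, FDR 0.00339). Arid1b was led in both lists by a single-block peak across the stop codon (5342189 to 5343266 in NC and 5342593 to 5343252 in CHAPIR, chromosome 17), at 9.57-fold (FDR 1.58e-21) and 17.2-fold (FDR 2e-12). Arid4a, Arid4b and Arid5b were shared, and the class had 1 NC only gene, Arid5a, with CDS and 3' UTR peaks of 61 bases (6.97-fold, FDR 0.00977, and 9.65-fold, FDR 0.0355).

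CHD remodellers carried 33 sites in 9 genes, of which 14 were shared, 19 NC only and 0 CHAPIR only. Chd4, the motor of the NuRD repressor complex, had 6 sites, 4 of them shared. Its leading peaks coincided in the CDS, at 3.71-fold and an FDR of 1e-56 in NC (chromosome 6, 125122173 to 125123570) and 2.86-fold and an FDR of 6.31e-21 in CHAPIR (125122138 to 125123375). Chd6 peaked at the stop codon in both lists, with 5.63-fold (FDR 2.51e-20) and 5.96-fold (FDR 2.95e-10), and Chd2 over internal exons with 6.07-fold (FDR 1.26e-26) and 4.94-fold (FDR 8.13e-10). Chd7, the gene of CHARGE syndrome, and Chd8 also had their leading NC peak across the stop codon, overlapped by a CHAPIR peak, as had Chd9 on its coding transcripts. Chd1 shared 1 of its 5 sites, and another of them, an NC peak on chromosome 17 from 17387382 to 17387472, lay outside the RefSeq span of Chd1 and within that of Riok2. Chd3, the other NuRD motor, was NC only in the CDS (chromosome 11, 69363731 to 69369167, 6.44-fold, FDR 4.68e-10), as was Chd1l (chromosome 3, 97570325 to 97571033, 4.21-fold, FDR 2.09e-07). At an FDR at or under 1e-05 the class had 4 shared and 5 NC only genes, since Chd1, Chd7 and Chd8 kept only their NC peaks.

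Bromodomain proteins bind acetylated histones, and Brd2 and Brd3 belong to the BET family. Brd2 was shared without overlap: the NC list held peaks in the CDS (3.16-fold, FDR 7.94e-18), at the start codon end (3.67-fold, FDR 6.76e-08) and in the 3' UTR (7.51-fold, FDR 1.58e-05), and the CHAPIR list a peak across the stop codon (chromosome 17, 34112422 to 34112601, 4.44-fold, FDR 1.29e-09). The CHAPIR peak was 92 genomic bases from the nearest NC peak.

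Brd9 and Brd7, which mark the noncanonical BAF and the PBAF complex, had overlapping peaks, with leading NC folds of 5.36 (FDR 1e-21) and 4.56 (FDR 1e-19) and leading CHAPIR folds of 3.56 (FDR 6.31e-11) and 2.44 (FDR 1.02e-10). Brd3 was shared through 1 CDS site (4.91-fold, FDR 2e-18 in NC, and 3.64-fold, FDR 3.47e-05 in CHAPIR). Brd1, a scaffold of acetyltransferase complexes, was NC only in the CDS (chromosome 15, 88729960 to 88730500, 7.39-fold, FDR 1e-12), and Brd8 was NC only at 3.68-fold (chromosome 18, 34605618 to 34607442, FDR 1.15e-06).

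**Figure D4:**
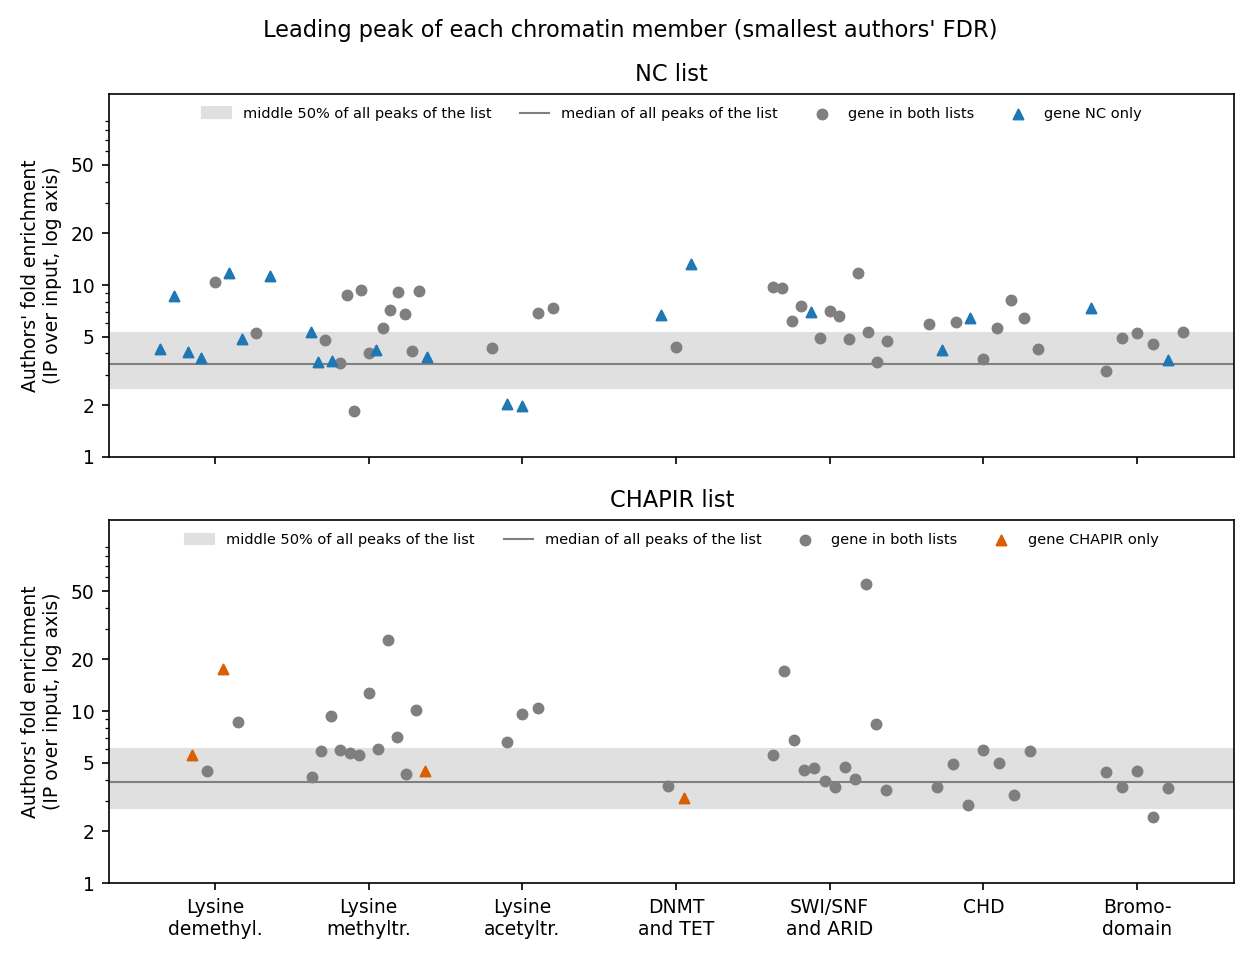
Authors' fold enrichment (immunoprecipitated over input, log axis) of the leading peak of each member in the NC list (top) and the CHAPIR list (bottom), by class, with the median and the middle 50% of all peaks of that list in grey. Circles are genes in both lists and triangles genes in 1 list; Smarcc2 at 55.1-fold and Setd1b at 26-fold stand highest, both in the CHAPIR list.

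Among NC peaks the members had a median fold of 4.29 (3.18 to 6.45 for the middle 50%), against 3.49 (2.51 to 5.23) over all peaks. Among CHAPIR peaks it was 4.03 (3.06 to 5.55), against 3.86 (2.74 to 6.03). Their median width was 298 (NC) and 209 (CHAPIR) exonic bases, against 238 and 181 over all peaks. Among peaks wholly in the CDS it was 300 against 239 in NC, but 210 against 210 in CHAPIR. Lines that repeat by transcript enter these medians. An FDR at or under 1e-05 was reached by 59.4% and 57% of the members' lines, against 56.2% and 61.7% over all lines.

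Regions also differed between the lists within shared genes, in the same direction in the members as over all shared genes. Among the 42 shared members, 7 genes had a peak lying entirely within the 3' UTR in both lists, 2 had one in NC only (Brd2 and Chd2) and 6 in CHAPIR only (Arid1b, Dnmt3a, Kmt2a, Nsd3, Setd1b and Smarce1). Over all 3557 shared genes these counts were 1240, 208 and 607. A peak wholly in the CDS was in both lists for 35 of the 42, NC only for 4 and CHAPIR only for 1, against 1107, 488 and 231 of the 3557. A peak across CDS and 3' UTR was in both for 11, NC only for 9 and CHAPIR only for 3, against 826, 495 and 209.

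Other chromatin genes, outside the naming rule, had a CHAPIR only share of 6.17%. Of 134 listed genes 81 had a peak: 48 in both lists (59.3%), 28 NC only (34.6%) and 5 CHAPIR only. Over all genes with a peak the shares were 53.5% in both, 31.3% NC only and 15.3% CHAPIR only, so the NC only share was near the background. The NC only genes of smallest FDR were Bcl7c of BAF complexes (5.2-fold, FDR 1.26e-18), the muscle methyltransferase gene Smyd1 (1.9-fold, FDR 2.51e-17), Jarid2 (6.54-fold, FDR 7.94e-12) and Eed (4.29-fold, FDR 3.98e-11) of the Polycomb complex, and Dpf3, a BAF subunit known from heart development (5.47-fold, FDR 6.31e-09). The class IIa deacetylase genes Hdac4, Hdac5 and Hdac9 were NC only as well, while Hdac7 of the same class was in both lists (5.36-fold in NC, 6.59-fold in CHAPIR). The CHAPIR only genes were Sirt2 (3.5-fold), Hdac3 (5.38-fold), Ncoa6 (14.6-fold) and Dpy30 (3.64-fold), each with its leading peak in the 3' UTR, and Phc1 (4.79-fold) in the CDS. The acetyltransferase genes Ep300 and Crebbp, the deacetylase genes Hdac1 and Hdac2 and the remodeller genes Atrx and Bptf were in both lists.

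In keeping with the tissue label, all 10 cardiomyocyte markers had a peak, 9 in both lists and Actc1 in CHAPIR only. Markers of other cells differed between the lists: 5 of 8 macrophage markers with a peak were CHAPIR only and 0 NC only, all 4 atrial markers were CHAPIR only, and all 4 adipocyte markers with a peak were NC only. Endothelial, fibroblast, and smooth muscle and pericyte markers were in both lists in 4 of 6 cases each. The lists give no expression levels, and the part of the cell makeup in the members' counts was not tested.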

How the data were processed

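Per the labels' protocols, mRNA was fragmented, enriched with an anti-m6A antibody, made into stranded libraries, trimmed with cutadapt and aligned with HISAT2, and peaks were called with exomePeak. HISAT2 2.1.0 and the GRCm38 build come from the submitters' processing notes. For exomePeak, the sources used here do not give version, options, threshold or use of strand. The authors deposited 1 list per condition (23155 NC and 16562 CHAPIR lines), with p-values, FDR and a fold ratio per peak. Depth is unknown, and no replicates exist.

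Starts counted from 0 and were raised by 1. Members matched a naming pattern, and all 67 had a RefSeq symbol. Overlap (bedtools 2.31.1) needed 1 exonic base on the same strand. Shares carry 95% Wilson intervals (scipy 1.17.1). The leading peak has the smallest FDR, ties by higher fold. Full values were given for CHAPIR only members, the 3 NC only and 3 shared members of smallest FDR per class, shared members without overlap and those with most sites. Python 3.11.15, pandas 2.3.3, numpy 2.4.6 and matplotlib 3.10.9 were used. Overlap and merging recovered 500 of 500 test pairs. Members and lists were chosen with earlier results of these data known. Alternatives were lists cut to equal length, other overlap rules, a fold minimum of 4, an FDR maximum of 1e-05, protein-coding transcripts only, 1 line per gene and shared genes only. Values of 1 item are not reported here.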

Additional observations from a re-analysis of the deposited data

How the results depend on the processing

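No paired analysis was possible because each condition had 1 immunoprecipitated and 1 input library. The counts of members in both lists, NC only and CHAPIR only stayed within 1.5 times under the 5 alternatives tried, but the genes behind them changed. At an FDR at or under 1e-05, 10 of the NC only and all 3 CHAPIR only members were genes shared in the full lists. The 4 CHAPIR only members of the full lists kept no peak there. The share of shared members with overlapping peaks ran from 73.8% to 85.7%. In all, 73 of the values under alternatives moved little and 18 moved more. Some of the 73 could not move: CHAPIR is the shorter list and is not cut at equal length, so its region shares there are the same by construction. At an FDR at or under 1e-05, sites in both lists were 31 and NC only sites 55. With lists of equal length, NC only sites were 58. With 1 line per gene, the CDS shares were 66.7% (NC) and 58.7% (CHAPIR), and at the stricter FDR the 3' UTR share in the NC list was 3.73%. By class, the stricter FDR left 4 NC only and 0 CHAPIR only demethylases, 2 CHAPIR only methyltransferases, 1 NC only acetyltransferase, 0 shared and 0 CHAPIR only DNMT and TET genes, 2 NC only and 1 CHAPIR only SWI/SNF-type genes, and 4 shared and 5 NC only CHD genes. Lists of equal length left 0 NC only acetyltransferases and 0 NC only SWI/SNF-type genes. Stricter lists hold fewer peaks by construction. Without Smarca2, added after the data were seen, the CDS shares were 74.5% and 69.8%. Depth limits which weak peaks could be called, and it is unknown.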

Other observations

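Some folds recur in many peaks of a list. The fold of the leading Kdm7a peak (11.3) is carried by 104 peaks of the NC list, that of Kdm6a (4.83) by 206, and that of Arid5a (6.97) by 91. In the CHAPIR list the fold of the leading Kmt2a peak (4.16) is carried by 200 peaks and that of Tet2 (3.12) by 197. For Arid1a, Kmt2e and Tet3 in the NC list it is carried by 3, 3 and 4 peaks, and for Smarcc2 in the CHAPIR list by 3.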
